A study of Mus musculus with 12 samples.

Results

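DOX/IgG1 tumors, which received doxorubicin together with an isotype control antibody, were compared with IgG1 tumors, which received the control antibody without doxorubicin. The members were chosen by the treatment given in the sample labels, and they were 6 of the 12 tumors of the series, 3 in each group. All of these tumors arose in the mammary glands of female C57BL/6 mice that carry the polyoma middle T oncogene (PyMT) under the MMTV promoter, which is active in mammary epithelium. The other 6 tumors came from mice given anti-PD-1 antibody with or without doxorubicin. The comparison addresses what differs in the tumor transcriptome when chemotherapy is given without checkpoint blockade.

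In the IgG1 group, treatment began at a tumor diameter of 0.6 cm, with 20 mg/kg antibody as the first dose and 10 mg/kg as the later doses, on days 6, 12 and 18. In the DOX/IgG1 group it began at 1 cm, and 5 mg/kg doxorubicin was given weekly for 5 weeks, each time followed on the next day by 10 mg/kg antibody. The sample labels give 5 weeks of weekly treatment for every group. Initial tumor size, the first dose of antibody and the schedule therefore differ between the groups together with doxorubicin, and cannot be told apart from it. The labels do not say whether the 3 tumors of a group came from separate mice, so the p-values measure the spread between these samples.

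Doxorubicin is an anthracycline that traps topoisomerase II on cut DNA, so that double-strand breaks persist. Such breaks activate the p53 pathway, which arrests the cell cycle through targets such as Cdkn1a or leads to cell death. PyMT tumors are luminal mammary carcinomas whose cells express milk proteins and other secreted proteins, which are folded and glycosylated in the endoplasmic reticulum (ER).

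RNA of each whole tumor was sequenced, and the deposited values are log2(TPM + 1) for 21960 genes, where TPM (transcripts per 1e6) is a level corrected for transcript length. The listed genes summed to 609418, 689937 and 708191 TPM in IgG1 replicates 1 to 3 and to 698344, 702573 and 686589 TPM in DOX/IgG1 replicates 1 to 3. No read counts were used here, as the files give TPM alone, so the depth behind a value is unknown, and a gene listed at 0 may still have been transcribed. Between 6879 and 7693 genes were listed at 0 in an IgG1 tumor and between 6565 and 8104 in a DOX/IgG1 tumor. Of the cytosolic ribosomal protein genes, 3 were listed at 0 in each IgG1 tumor and 4, 4 and 3 in the DOX/IgG1 tumors.

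The tissue label was checked against markers of luminal epithelium. Epcam, an adhesion molecule of epithelial cells, was 938, 846 and 954 TPM in the IgG1 tumors and 565, 522 and 418 TPM in the DOX/IgG1 tumors. Krt19, a keratin of luminal cells, was 847, 347 and 601 TPM and 302, 1261 and 1801 TPM. Both were abundant in all 6 tumors, as were the milk protein gene Csn3, at 812 TPM or more, and the iron carrier gene Trf, at 2452 TPM or more. Igfbp5, which encodes a binding protein for insulin-like growth factors, was among the most abundant genes in both groups, at 5706, 4118 and 4309.7 TPM and 4534, 3875 and 3724 TPM.

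DOX/IgG1 replicate 1 stood apart from the other tumors. The column heading of its file carries the word "test", which nothing in the labels explains. Across the genes tested, its values correlated with those of DOX/IgG1 replicates 2 and 3 at r = 0.850 and r = 0.847, and with those of the IgG1 tumors at 0.875, 0.878 and 0.872. The other DOX/IgG1 pair reached 0.930, and pairs of IgG1 tumors reached 0.908, 0.908 and 0.938, where genes are not independent replicates. Of the genes tested, 782 were listed at 0 in DOX/IgG1 replicate 1, against 146 and 215 in replicates 2 and 3. Results are therefore given with and without it.

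A gene was tested when 3 or more of the 6 tumors had 1 TPM or more of it, so a gene can be tested through the values of 1 group alone. It was called when its absolute log2 fold change was above 1 and its adjusted p from limma was below 0.1. The log2 fold change is the mean log2(TPM + 1) of the DOX/IgG1 tumors minus that of the IgG1 tumors, which understates changes of genes near 1 TPM. With doxorubicin 2 of 13874 genes rose (0.0144%) and 3 fell (0.0216%), so that 5 were called (0.0360%). The acute phase genes Saa1 and Saa2 and the histone gene Hist1h2af fell, and Bpifa2 and Smr3a, which encode secreted proteins of salivary glands, rose. All 3 DOX/IgG1 tumors lay above all 3 IgG1 tumors in 1292 genes (9.31%) and below them in 644 (4.64%). With 3 tumors against 3, an exact two-sided permutation test of a gene cannot give a p below 0.1, so groups that do not overlap in either direction are what chance gives for 10% of genes. An unadjusted p below 0.05 was reached by 698 higher genes (5.03%) and 375 lower genes (2.70%), against which such counts in the lists below are to be read.

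The median log2 fold change of all genes tested was 0.12, with 60.6% of genes higher in the DOX/IgG1 tumors. Scaling each tumor by the median of ratios moved this median to 0.01. The groups then did not overlap in 959 genes that were higher (6.91%) and 1024 that were lower (7.38%). The direction with more such genes thus depended on the scaling. List medians are therefore to be read against the median of all genes in the same setting. That was 0.12 with all tumors, 0.15 without DOX/IgG1 replicate 1 and 0.01 after scaling.

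Without DOX/IgG1 replicate 1, limma called 96 genes higher (0.692%) and 26 lower (0.187%), and all 5 genes named above were among these 122. The median log2 fold change of all genes was then 0.15, and the cause of the larger number was not tested. Leaving out DOX/IgG1 replicate 2 left Saa1 and Hist1h2af called, 2 of the 5. Leaving out DOX/IgG1 replicate 3 or IgG1 replicate 1, 2 or 3 left 0 by limma, while 795, 964, 738 and 965 genes still had an unadjusted p below 0.05.

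**Figure D1:**
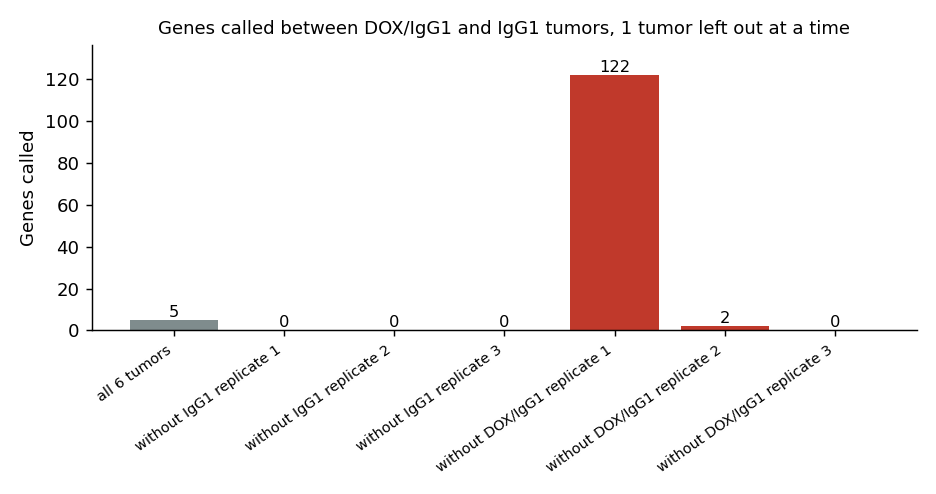
Number of genes called by limma between DOX/IgG1 and IgG1 tumors with all 6 tumors and after leaving out each one in turn. The bars stand at 5 genes with all tumors, at 122 without DOX/IgG1 replicate 1, and at 0 to 2 without any other tumor.

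Saa1 and Saa2 encode serum amyloid A proteins, which are secreted in the acute phase of inflammation and are also made by mammary epithelium. Saa1 was 132, 173 and 156 TPM in the IgG1 tumors and 20.3, 30.5 and 12.4 TPM in the DOX/IgG1 tumors. Saa2 was 74.7, 64.9 and 71.5 TPM and 15.3, 9.19 and 9.12 TPM. The groups did not overlap for either gene, and without DOX/IgG1 replicate 1 the log2 fold changes were -2.90 (SE 0.37) and -2.81 (SE 0.26). Both calls were lost without DOX/IgG1 replicate 3 or any IgG1 tumor and with the replicate number as a block, and that of Saa2 also without DOX/IgG1 replicate 2, but the log2 fold changes stayed between -3.18 and -2.57 for Saa1 and between -2.81 and -2.47 for Saa2. Both genes were also lower in the anti-PD-1 arm, which shares no tumor with this comparison, at -1.29 and -0.98, where no gene was called by limma.

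The genes of this pair lie head to head on chromosome 7 and are near-identical copies, so that reads may have been assigned to the wrong member and their separate values are uncertain. The likeness extends upstream of the genes, and the windows printed here show it, taken from the RefSeq promoter sequences on GRCm38, chr7:46743052-46743146 (minus strand) for Saa1 and chr7:46751666-46751760 (plus strand) for Saa2. Capitals mark a run of 65 bases that both promoters hold, which ends 86 bases before the start site of Saa1 and 87 before that of Saa2. Over 250 upstream bases the pair differed by 13 edits.
Saa1: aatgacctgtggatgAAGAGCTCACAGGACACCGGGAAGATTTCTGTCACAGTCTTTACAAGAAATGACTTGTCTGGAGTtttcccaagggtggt
Saa2: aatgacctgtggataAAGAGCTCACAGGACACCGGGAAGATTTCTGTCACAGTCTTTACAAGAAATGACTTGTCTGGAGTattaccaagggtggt

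The list of acute phase and secreted defense genes held 21 members, of which 16 could be tested. Of these, 12 were lower, 2 were called, against 0.0216% of all genes called lower, and 4 did not overlap between the groups (25%, against 4.64% of all genes). The median log2 fold change was -0.66, against 0.12 for all genes, but the summed level was not lower in every DOX/IgG1 tumor, at 6131, 5463 and 6134 TPM in the IgG1 tumors and 9765, 4352 and 3081 TPM in the DOX/IgG1 tumors, with the highest sum in DOX/IgG1 replicate 1. There lactotransferrin, Ltf, which was chosen after its values were seen, was highest, at 1433, 897 and 1758 TPM and 7185, 1022 and 750.1 TPM. Lcn2, the iron-scavenging lipocalin 2, was its most abundant member at 3062, 2881 and 2716 TPM and 1745, 1967 and 1424 TPM (log2 fold change -0.76, SE 0.27, adjusted p = 0.568). Pigr, the receptor that carries IgA across epithelium, was 74.9, 63.6 and 95.1 TPM and 57.6, 28.1 and 28.1 TPM. It was called only without DOX/IgG1 replicate 1 (-1.42, SE 0.27, adjusted p = 0.0821). Dmbt1, a secreted scavenger receptor of mucosal surfaces, was 16.2, 219.9 and 143 TPM and 1.06, 20.7 and 10.1 TPM, and its groups overlapped. It was called only with the replicate number as a block, and its adjusted p was 0.514 without a block and ranged from 0.0720 to 0.860 over the alternatives. Saa4 was listed at 0 in all 6 tumors.

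Bpifa2, whose protein binds bacterial lipopolysaccharide in saliva, had 14.4, 21.3 and 53.7 TPM in the DOX/IgG1 tumors and 0 in each IgG1 tumor. Smr3a had 16.6, 10.2 and 14.8 TPM in the DOX/IgG1 tumors and was likewise listed at 0 in each IgG1 tumor. No fold is given for either gene against values of 0. Amy1, the salivary amylase, was 5.24, 15 and 5.93 TPM and 21.1, 42.8 and 34.3 TPM, which did not overlap (log2 fold change 1.88, SE 0.45, adjusted p = 0.460). These genes stand in a list of 14 salivary gland genes, of which 13 were in the files and 11 were tested. Of these, 8 were higher and 3 lower, and the median was 0.93 (0.43 to 1.24 with 1 tumor left out). Over all alternatives this median was 1.88 at its highest. By limma, 3 higher and 2 lower members had an unadjusted p below 0.05. The groups did not overlap in 3 higher members (27.3%, against 9.31% of all genes) and 1 lower member (9.09%, against 4.64%). The lowest log2 fold change in the list was -2.56. Bpifa2 and Smr3a were the 2 called, against 0.0144% of all genes called higher, and as they were at 0 in every IgG1 tumor they could be tested only through their values in the DOX/IgG1 tumors. Both calls were lost without DOX/IgG1 replicate 2 or 3 or any IgG1 tumor and with the replicate number as a block, and that of Smr3a also with a pseudocount of 0.1 and with a minimum of 5 TPM. In the anti-PD-1 arm the median was -0.55, with 2 genes higher and 7 lower. The summed level of the list did not follow its median, at 542, 789 and 886 TPM in the IgG1 tumors and 333, 648 and 441 TPM in the DOX/IgG1 tumors. Aqp5, a water channel and the most abundant member, was 444, 381 and 411 TPM and 252, 251 and 279.9 TPM. It was thus lower without overlap (log2 fold change -0.66, SE 0.21, limma adjusted p = 0.514). Whether salivary tissue was part of a sample was not tested.

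The clearest block of genes that were lower in the DOX/IgG1 tumors belonged to the unfolded protein response, through which cells match the folding capacity of the ER to the load of secreted protein. Of 28 members, all tested, 26 were lower and 2 higher. All 3 DOX/IgG1 tumors lay below all 3 IgG1 tumors in 17 members (60.7%), against 4.64% of all genes, and in 19 after scaling, against 7.38%. The median log2 fold change was -0.70 with all 6 tumors, -0.78 without DOX/IgG1 replicate 1 and -0.82 after scaling. The list summed to 13669, 14725 and 16749.6 TPM in the IgG1 tumors and to 9398, 8233 and 8162 TPM in the DOX/IgG1 tumors. No member was called by limma with all 6 tumors, while 15 had an unadjusted p below 0.05. From whole tissue, fewer cells of a type and less RNA per cell cannot be told apart, here or for any list that follows.

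Xbp1, the transcription factor made active when the sensor IRE1 splices its mRNA, was 779.6, 1019 and 860.0 TPM in the IgG1 tumors and 303, 368 and 297 TPM in the DOX/IgG1 tumors. The lowest IgG1 tumor was above the highest DOX/IgG1 tumor by more than the whole range within either group. Its log2 fold change was -1.45 (SE 0.23, n = 3 per group, limma adjusted p = 0.306). Without DOX/IgG1 replicate 1 it was -1.41 (SE 0.25, adjusted p = 0.0706) and was called. Manf, a small ER protein that is secreted under stress, was 591, 441 and 566 TPM and 269, 219.5 and 251 TPM (log2 fold change -1.10, SE 0.23, adjusted p = 0.453). Pdia6, an enzyme that rearranges disulfide bonds, was 499, 359 and 461 TPM and 253, 189 and 196 TPM (-1.04, SE 0.24). The groups did not overlap for either gene. Nucb2, a calcium-binding protein of the secretory route, was 167, 289 and 275 TPM and 69.2, 111 and 102 TPM (-1.35, SE 0.29), also without overlap. Calr, the calcium-binding chaperone calreticulin and the most abundant member, was 3543, 2676 and 3151 TPM and 1805, 1722 and 1657 TPM (-0.85, SE 0.27).

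**Figure D2:**
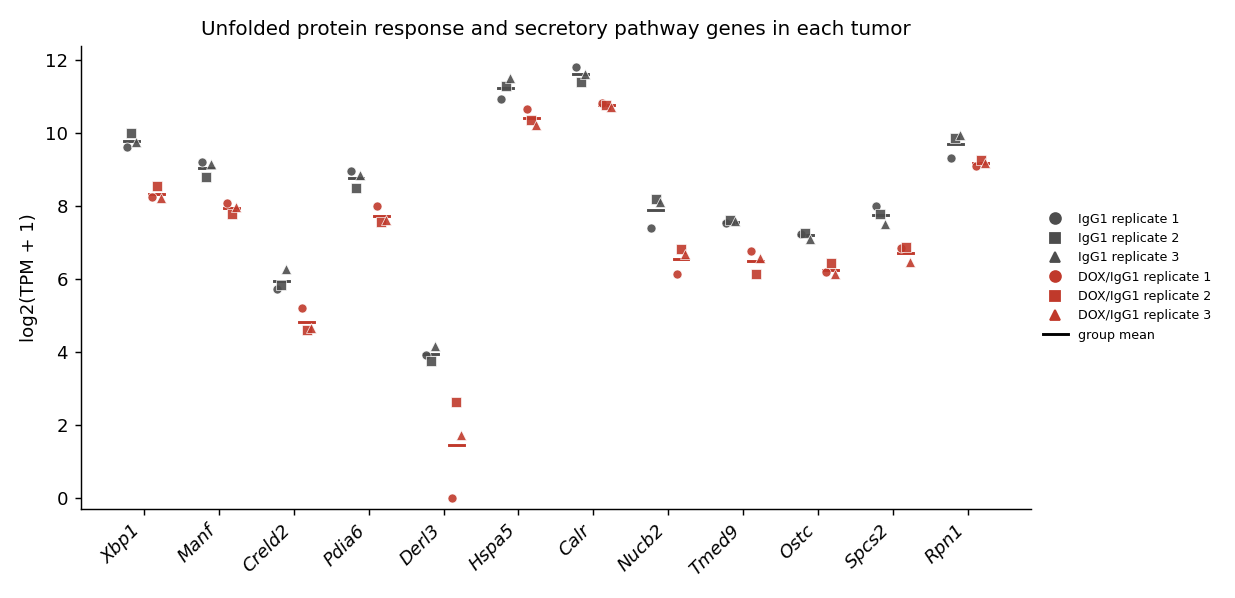
Level of 12 genes of the unfolded protein response and the early secretory pathway in each tumor, on a log2(TPM + 1) axis, with gray for IgG1, red for DOX/IgG1, a symbol for each replicate and a line at each group mean. In all of them the 3 DOX/IgG1 tumors lie below the 3 IgG1 tumors, with Xbp1 at 368 TPM or lower with doxorubicin and at 779.6 TPM or higher without it.

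The ER stress response element, read as CCAAT, any 9 bases and CCACG, is a binding motif through which the transcription factors of this response act. It was searched on both strands in the 250 bases upstream of RefSeq start sites on GRCm38. Of the 28 members, 24 had a promoter sequence, and 9 of these (37.5%) held the motif, against 35 of 27025 genes in all (0.130%) and 15 of 10544 tested genes (0.142%). A match describes the sequence and says nothing about binding in these tumors. The 9 genes were Hspa5, Hsp90b1, Dnajc3, Creld2, Pdia6, Calr, Canx, Syvn1 and Derl3. The 7 windows that lie outside annotated exons are shown because each gene was lower in mean in the DOX/IgG1 tumors, although limma called 0 of them. They lie at chr14:118937797-118937875 (Dnajc3), chr15:88819490-88819568 (Creld2), chr12:17266461-17266539 (Pdia6), chr8:84847045-84847123 (Calr), chr11:50325770-50325848 (Canx), chr19:6046502-6046575 (Syvn1) and chr10:75893212-75893290 (Derl3). Each is given 5′ to 3′ on the strand of its gene, with the motif in capitals, which in Creld2, Calr and Derl3 is its reverse complement.
Dnajc3: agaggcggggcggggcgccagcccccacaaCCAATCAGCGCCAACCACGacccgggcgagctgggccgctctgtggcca
Creld2: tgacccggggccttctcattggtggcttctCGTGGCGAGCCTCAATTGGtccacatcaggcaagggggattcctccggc
Pdia6: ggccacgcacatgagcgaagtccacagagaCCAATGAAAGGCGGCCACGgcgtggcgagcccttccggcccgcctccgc
Calr: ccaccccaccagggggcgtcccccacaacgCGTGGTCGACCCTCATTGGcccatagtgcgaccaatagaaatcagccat
Canx: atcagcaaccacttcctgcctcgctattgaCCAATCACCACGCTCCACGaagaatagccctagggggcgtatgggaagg
Syvn1: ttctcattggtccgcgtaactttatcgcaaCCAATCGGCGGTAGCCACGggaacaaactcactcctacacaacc
Derl3: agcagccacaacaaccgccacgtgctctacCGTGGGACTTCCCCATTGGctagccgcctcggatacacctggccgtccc

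All 9 list members with the motif were lower in mean in the DOX/IgG1 tumors, but so were 26 of all 28 members. The direction of tested genes outside the list that hold the motif is not given. Members outside the rule for named genes are described because their promoter holds it. Hspa5, the main chaperone of the ER lumen, was 1957, 2498 and 2899 TPM in the IgG1 tumors and 1615, 1295 and 1189 TPM in the DOX/IgG1 tumors (log2 fold change -0.84, SE 0.28). Hsp90b1, its partner GRP94, was 1564, 2309.9 and 3394 TPM and 1735, 1352 and 1450.0 TPM, and here the groups overlapped. Canx, the membrane-bound lectin chaperone, was 1078, 1424 and 1061 TPM and 922, 625 and 558 TPM, and the groups did not overlap. Creld2, a stress-induced ER protein, was 51.5, 55.7 and 75.6 TPM and 35.4, 23.1 and 24.1 TPM (-1.12, SE 0.28). Derl3, part of the channel that returns misfolded proteins to the cytosol, was 14.2, 12.3 and 16.7 TPM and 0, 5.1 and 2.31 TPM, so that it was listed at 0 in DOX/IgG1 replicate 1. Syvn1, the ubiquitin ligase of that route, was 29.0, 27.7 and 38.3 TPM and 25.2, 21.4 and 18.5 TPM, a narrower gap (-0.52, SE 0.27). Dnajc3, a cochaperone of Hspa5, was 71.5, 80.9 and 105 TPM and 40.4, 72.8 and 70.3 TPM, with overlap.

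Machinery that brings proteins into the ER and on to the Golgi was lower as well. In the list for ER translocation and the early secretory pathway, 38 of 43 members tested were lower, and 18 (41.9%) did not overlap between the groups, against 4.64% of all genes. Its median was -0.46 with all tumors, -0.41 without DOX/IgG1 replicate 1 and -0.59 after scaling, and 17 members had an unadjusted p below 0.05 while limma called 0. The summed level was 6767, 7863 and 7619 TPM in the IgG1 tumors and 5332, 5121 and 5150.1 TPM in the DOX/IgG1 tumors. Tmed9, a cargo receptor of transport vesicles, was 183, 193 and 190.5 TPM and 108, 69.3 and 93.9 TPM, and it was called without DOX/IgG1 replicate 1 (-1.22, SE 0.24, adjusted p = 0.0929). Ostc, a subunit of the complex that attaches N-linked sugars, was 149, 153 and 135 TPM and 71.1, 84.6 and 68.8 TPM. Spcs2, a subunit of signal peptidase, was 254, 218 and 179 TPM and 114, 115 and 86.2 TPM. Rpn1, the most abundant member, was 633, 932 and 977 TPM and 548, 614 and 571 TPM. For each of these 4 genes the lowest IgG1 tumor was above the highest DOX/IgG1 tumor. None of the 33 promoters found for this list held the ER stress response element.

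Milk protein genes are clients of this pathway. Of 19 tested genes for milk proteins and luminal differentiation, 13 were lower and 6 higher, 5 did not overlap between the groups (26.3%, against 4.64% of all genes), and the median was -0.68. Limma called 0 with all 6 tumors, and 5 had an unadjusted p below 0.05. Csn3, the kappa-casein gene, was 6987, 4472 and 7858 TPM and 812, 3071 and 2403 TPM (log2 fold change -1.78, SE 0.51, adjusted p = 0.479). Lalba, a subunit of lactose synthase, was 343, 236 and 375 TPM and 6.6, 134 and 60.4 TPM (-2.97, SE 0.87, adjusted p = 0.494). DOX/IgG1 replicate 1 was the lowest tumor for both, and without it the log2 fold changes were -1.20 and -1.78 and the list median was -0.45. The 2 members then called were higher, against 0.692% of all genes, namely the transcription factor gene Foxa1 (2.15, SE 0.33) and the progesterone receptor gene Pgr (2.22, SE 0.44), both outside the rule for named genes and chosen after their values were seen. Csn1s2a, another casein gene, was 6.17, 2.3 and 24.0 TPM and 0, 1.17 and 0 TPM. With 1 TPM or more in only 1 DOX/IgG1 tumor, Csn1s2a met the limit for testing through the IgG1 tumors. Areg, an epidermal growth factor receptor ligand of the growing mammary duct, was 26.9, 19.6 and 84.6 TPM and 3.81, 8.46 and 14.5 TPM, without overlap. Its genes summed to 8607, 5987 and 10044 TPM and 2320.2, 4776 and 4208 TPM. In the anti-PD-1 arm its median was 0.42, on the other side of 0.

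Of 9 luminal epithelium genes, 6 were lower and 3 higher, with a median of -0.19 that became 0.03 without DOX/IgG1 replicate 1. Limma called 0 of them, and 1 had an unadjusted p below 0.05. That gene was Epcam (log2 fold change -0.87, SE 0.23, adjusted p = 0.469), whose values did not overlap between the groups. Summed over the list, the level was 3875, 2688 and 3337 TPM in the IgG1 tumors and 2209, 3488 and 4038 TPM in the DOX/IgG1 tumors, with Krt19 as the most abundant gene.

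Genes that p53 activates were mostly higher in the DOX/IgG1 tumors. Of 25 members 24 were tested, 20 were higher and 4 lower, or 16 and 8 after scaling. All 3 DOX/IgG1 tumors lay above the IgG1 tumors in 8 (33.3%), against 9.31% of all genes, and in 8 after scaling, against 6.91%. The median log2 fold change was 0.60, 0.56 without DOX/IgG1 replicate 1 and 0.48 after scaling. Limma called 0, and 9 members had an unadjusted p below 0.05, all of them higher. The summed level was 730.4, 820.1 and 991 TPM in the IgG1 tumors and 1472, 1155 and 1120.2 TPM in the DOX/IgG1 tumors, with Perp, a junction protein of epithelia, as the most abundant gene.

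Cdkn1a, the cell cycle inhibitor p21, was 15.2, 12.4 and 8.99 TPM in the IgG1 tumors and 54.8, 36.4 and 29.6 TPM in the DOX/IgG1 tumors. The lowest DOX/IgG1 tumor was above the highest IgG1 tumor, and the log2 fold change was 1.63 (SE 0.34, adjusted p = 0.453). Ccng1, cyclin G1, was 40.3, 62.8 and 66.0 TPM and 167, 132 and 125 TPM (1.33, SE 0.26, adjusted p = 0.432), again without overlap. Zmat3, an RNA-binding protein, was 8.59, 12.7 and 10.5 TPM and 31.3, 20.2 and 24.4 TPM. Trp53inp1, a nuclear protein that promotes p53 activity, was 59.3, 103 and 115 TPM and 196, 210.4 and 151 TPM. The groups did not overlap for these genes either, and DOX/IgG1 replicate 1 was the highest tumor for Cdkn1a, Ccng1 and Zmat3 but not for Trp53inp1. Mdm2, the ubiquitin ligase that p53 induces and that degrades p53, was 42.1, 85.5 and 89.6 TPM and 168, 78.8 and 92.3 TPM. It was high in DOX/IgG1 replicate 1 alone, and without that tumor its log2 fold change was 0.31 (SE 0.35) in place of 0.63.

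Among the targets and transporters of doxorubicin, 9 of 12 genes were higher, with a median of 0.22 (0.06 to 0.38 with 1 tumor left out), against 0.12 for all genes. Limma called 0, and 2 had an unadjusted p below 0.05. Top2a, the topoisomerase II of dividing cells, was 112, 128 and 131 TPM in the IgG1 tumors and 107, 33.5 and 85.5 TPM in the DOX/IgG1 tumors (log2 fold change -0.86, SE 0.40, adjusted p = 0.658). With 1 tumor left out the log2 fold change of Top2a ranged from -1.19 to -0.37. Its groups did not overlap, although DOX/IgG1 replicate 1 lay close to the IgG1 tumors. Top2b, the form that resting cells also express, was 40.1, 125 and 143 TPM and 159.5, 91.3 and 125 TPM (0.44, SE 0.46). That difference rested on the low value of IgG1 replicate 1, without which it was -0.13. Abcc1 and Abcc4 encode pumps that export drugs and their conjugates. Abcc1 was 15.2, 17.3 and 13.4 TPM and 46.9, 23.9 and 29.1 TPM (1.02, SE 0.32, adjusted p = 0.514), and Abcc4 was 1.88, 1.43 and 3.02 TPM and 3.21, 8.59 and 20.6 TPM (1.65, SE 0.61, adjusted p = 0.577). With 1 tumor left out the log2 fold change of Abcc4 ranged from 1.06 to 2.24. All 3 DOX/IgG1 tumors were above the IgG1 tumors for both pumps. Akr1a1, a carbonyl-reducing enzyme, was the most abundant gene of the list.

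DNA damage signaling and repair genes were close to all genes, with 14 of 21 higher and a median of 0.11 that became -0.01 after scaling, against 0.12 and 0.01 for all genes. Without IgG1 replicate 1 it was -0.11. Limma called 0, and 1 higher and 1 lower members had an unadjusted p below 0.05. The former was Mre11a, the nuclease that processes broken ends, at 20.4, 18.8 and 11.6 TPM and 40.6, 35.6 and 37.0 TPM (1.15, SE 0.30). The latter was Chek1, the kinase that halts the cycle when replication stalls, at 16.2, 15 and 21.4 TPM and 6.36, 7.77 and 7.1 TPM (-1.19, SE 0.32). The groups did not overlap for either gene.

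Genes of mitosis and replication were lower in most cases, and DOX/IgG1 replicate 1 differed from its group. Of 32 members, all tested, 29 were lower, with a median of -0.35 with all tumors and -0.57 without that replicate. Without DOX/IgG1 replicate 2 the median was -0.0165, close to 0, and without IgG1 replicate 2 it was -0.22. Limma called 0 with all 6 tumors, and 2 had an unadjusted p below 0.05. All 3 DOX/IgG1 tumors lay below the IgG1 tumors in 2 members (6.25%, against 4.64% of all genes) and in 4 after scaling, against 7.38%. Birc5, the mitotic regulator survivin, was 24.9, 34.5 and 37.0 TPM in the IgG1 tumors and 24.9, 5.53 and 6.16 TPM in the DOX/IgG1 tumors. It was called without DOX/IgG1 replicate 1, which lay within the IgG1 group (-2.26, SE 0.33, adjusted p = 0.0389). Plk1, a kinase of spindle assembly, was 22.6, 34.0 and 27.3 TPM and 21.4, 12.7 and 9.55 TPM, and the groups did not overlap. Mki67, which marks dividing cells, was 57.0, 152 and 98.1 TPM and 81.5, 25.2 and 51.7 TPM. Pcna, the replication clamp, that also takes part in repair, was the most abundant gene and was not lower, at 108, 111 and 159 TPM and 157, 155 and 165 TPM. Summed, the list stood at 809, 984 and 1035 TPM and 1093, 583 and 736 TPM. In the anti-PD-1 arm the median was 0.13.

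Replication-dependent histone genes supply new chromatin in S phase. Their mRNAs normally end in a stem-loop in place of a poly(A) tail, and many are near-identical copies, so values of single genes are uncertain. Of 68 listed genes 50 were tested, 42 were lower, and 10 were lower in all 3 DOX/IgG1 tumors (20%, against 4.64% of all genes). The median was -0.80, with -1.22 to -0.52 when 1 tumor was left out. Without DOX/IgG1 replicate 1 it was -1.15, and 7 were called lower, against 0.187% of all genes. Hist1h2af, the gene with the largest fall among the 5 called with all 6 tumors, was 177, 65.0 and 56.1 TPM in the IgG1 tumors and 0, 1.16 and 0 TPM in the DOX/IgG1 tumors (-6.08, SE 0.53, adjusted p = 0.0199). It met the limit for testing through the IgG1 tumors, as only 1 DOX/IgG1 tumor had 1 TPM or more. Its call was lost without DOX/IgG1 replicate 3 or any IgG1 tumor and in the fit of all 12 tumors. Hist2h2aa2, the most abundant member, was 617, 298 and 333 TPM and 134, 164 and 193 TPM, without overlap (-1.28, SE 0.31). Hist1h3e was 10.1, 17.8 and 13.0 TPM and 0, 4.97 and 0 TPM, and likewise met the limit through the IgG1 tumors. Hist1h2ap and Hist1h2bp met the limit through the IgG1 tumors and showed the split within the group, at 232, 0 and 0 TPM and 114, 0 and 0 TPM in the DOX/IgG1 tumors against 209, 145 and 73.8 TPM and 27.1, 7.46 and 14.2 TPM in the IgG1 tumors. The sum over the list was 4058, 2864 and 2010.5 TPM and 2453, 950.3 and 1217 TPM. The median in the anti-PD-1 arm was -0.66.

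Interferon-stimulated genes, which cells switch on after interferon or through sensing of nucleic acids, were mostly higher. Of 40 members 39 were in the files and tested, and 36 were higher. All 3 DOX/IgG1 tumors lay above the IgG1 tumors in 16 (41%), against 9.31% of all genes, and in 12 after scaling, against 6.91%. The median was 0.60, 0.64 without DOX/IgG1 replicate 1 and 0.48 after scaling. Limma called 0, and 18 higher members and 1 lower member had an unadjusted p below 0.05. Together its members reached 1555, 1403 and 1573 TPM in the IgG1 tumors and 2814, 2167 and 1927 TPM in the DOX/IgG1 tumors. In the anti-PD-1 arm the median was 0.02, with 22 genes higher and 17 lower.

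Trim12a and Trim30a, members of an antiviral TRIM family on chromosome 7, gave similar pictures. Trim12a was 10.5, 13.7 and 13.3 TPM in the IgG1 tumors and 40.6, 29.9 and 34.5 TPM in the DOX/IgG1 tumors (log2 fold change 1.41, SE 0.28, adjusted p = 0.432). Trim30a was 15.1, 16.3 and 22.0 TPM and 35.3, 41.5 and 42.5 TPM (1.13, SE 0.27). Gbp6, an interferon-induced GTPase with near-identical relatives and so an uncertain single value, was 11.1, 9.14 and 14.5 TPM and 28.2, 39.3 and 23.2 TPM (1.30, SE 0.33). The groups did not overlap for any of these 3 genes. Irf7, the most abundant gene of the list, was 214, 169 and 81.5 TPM and 299, 181 and 83.7 TPM and overlapped widely.

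**Figure D3:**
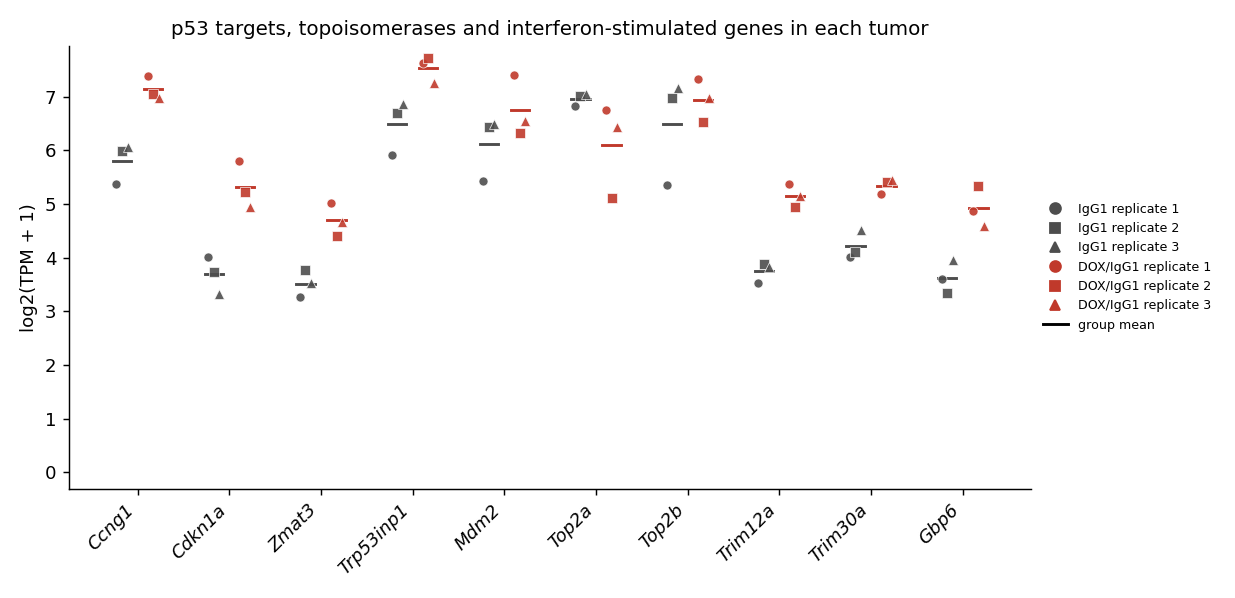
Level of p53 targets, both topoisomerase II genes and interferon-stimulated genes in each tumor, on a log2(TPM + 1) axis, with gray for IgG1, red for DOX/IgG1, a symbol for each replicate and a line at each group mean. Cdkn1a lies at 29.6 TPM or higher in the DOX/IgG1 tumors and at 15.2 TPM or lower in the IgG1 tumors, while the groups overlap for Mdm2 and Top2b.

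Matrix genes differed in direction. Of 30 collagen and matrix genes, 22 were lower and 8 higher, with a median of -0.41 (-0.60 to -0.19 with 1 tumor left out). The groups did not overlap in 9 lower members (30%, against 4.64% of all genes) and 2 higher members (6.67%, against 9.31%). Limma called 0 with all tumors, and 8 lower and 3 higher members had an unadjusted p below 0.05. Col9a1 and Col9a2 encode chains of collagen IX. Col9a1 was 114, 106 and 64.8 TPM and 16.0, 25.2 and 39.8 TPM (-1.82, SE 0.37, adjusted p = 0.432), and Col9a2 was 68.7, 79.7 and 50.6 TPM and 13.0, 19.0 and 22.9 TPM (-1.81, SE 0.30, adjusted p = 0.349). Both were lower in every DOX/IgG1 tumor, as was Col12a1, a fibril-associated collagen, at 81.9, 65.1 and 75.1 TPM and 38.1, 25.0 and 26.5 TPM. Col27a1, a fibrillar collagen, was higher in every DOX/IgG1 tumor, at 5.29, 2.92 and 3.15 TPM and 9.6, 21.6 and 20.7 TPM. Without DOX/IgG1 replicate 1, 2 members were called lower, Col9a2 (-1.60) and Col12a1 (-1.48), against 0.187% of all genes, and 2 were called higher, Col27a1 (2.24) and Col23a1 (3.29), against 0.692%. Col23a1, a membrane collagen chosen after its values were seen, was 1.83, 2.15 and 2.25 TPM and 2.34, 29.5 and 28.7 TPM. The total over the list was 4649.6, 3941 and 5962 TPM and 3565, 4081 and 4285 TPM, with Sparc as the most abundant gene, and its median in the anti-PD-1 arm was 0.43.

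Of the 10 genes with the smallest p on the lower side, 5 are described here and the others above. Npnt, the matrix protein nephronectin, was 102, 185 and 129 TPM in the IgG1 tumors and 12.9, 41.2 and 36.7 TPM in the DOX/IgG1 tumors (-2.27, SE 0.44, adjusted p = 0.409). Serpini1, the protease inhibitor neuroserpin, was 18.3, 40.1 and 26.2 TPM and 0, 4.16 and 2.76 TPM (-3.37, SE 0.63, adjusted p = 0.405). Both were called without DOX/IgG1 replicate 1. Galnt2, an enzyme that starts O-linked glycosylation in the Golgi, was 55.7, 47.5 and 61.8 TPM and 13.6, 20.1 and 23.3 TPM. Fam20a, a partner of the Golgi kinase of secreted proteins, was 237, 219 and 233 TPM and 82.2, 122 and 64.5 TPM. Pagr1a, a nuclear protein linked to histone methylation, was 4.12, 11.1 and 5.96 TPM and was listed at 0 in every DOX/IgG1 tumor, as in all 6 tumors of the anti-PD-1 arm, so that it could be tested only through the IgG1 tumors.

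Of the 10 genes with the smallest p on the higher side, 8 are described here and the others above. Snx22, a sorting nexin, was 5.94, 6.31 and 6.42 TPM in the IgG1 tumors and 71.4, 32.4 and 23.8 TPM in the DOX/IgG1 tumors (2.44, SE 0.42, adjusted p = 0.349). Bin2, a membrane-shaping protein of blood cells, was 3.5, 2.66 and 2.75 TPM and 20.2, 11.5 and 17.0 TPM (2.09, SE 0.38). Paqr6, a membrane progestin receptor, was 13.4, 10.6 and 14.7 TPM and 41.3, 48.2 and 33.5 TPM. None of these groups overlapped. Shank1, a scaffold of synapses, was 0.13, 0.3 and 0.16 TPM and 4.76, 5.79 and 5.32 TPM. Celf5, an RNA-binding protein of the brain, was 4.37, 4.36 and 5.73 TPM in the DOX/IgG1 tumors and listed at 0 in each IgG1 tumor. Sec14l5 was 0, 0.43 and 0 TPM and 5.77, 4.27 and 6.01 TPM, and 9130409J20Rik, a gene of unknown function, was listed at 0 and at 4.35, 11.2 and 7.58 TPM. Gm11273, a predicted gene, was likewise listed at 0 in each IgG1 tumor and was 13.7, 7.21 and 6.97 TPM in the DOX/IgG1 tumors. These last 5 genes were low in level in all tumors and could be tested only through the DOX/IgG1 tumors.

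Several genes were far higher in DOX/IgG1 replicates 2 and 3 than in any IgG1 tumor, but not in replicate 1. Amtn, an enamel protein made by the cells that lay down teeth, was 8.09, 16.4 and 23.3 TPM in the IgG1 tumors and 2.29, 501 and 426 TPM in the DOX/IgG1 tumors. Bcan, the proteoglycan brevican of nervous tissue, was 2.69, 2.04 and 2.1 TPM and 0.71, 66.2 and 50.4 TPM. Muc16, a membrane mucin, was 1.73, 1.03 and 3.83 TPM and 0.57, 92.4 and 37.2 TPM. Replicate 1 had the lowest level of all 6 tumors for these 3 genes. Sftpc, the lung surfactant protein C, was 5.25, 0 and 0 TPM and 2.98, 41.8 and 241 TPM, and met the limit for testing through the DOX/IgG1 tumors. Without replicate 1 the log2 fold changes were 4.89 (SE 0.40) for Amtn, 4.17 (SE 0.36) for Bcan, 4.32 (SE 0.53) for Muc16 and 5.79 (SE 0.94) for Sftpc, with limma adjusted p of 0.00513, 0.00593, 0.0222 and 0.0551. With all 6 tumors the adjusted p were 0.759, 0.673, 0.688 and 0.518.

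**Figure D4:**
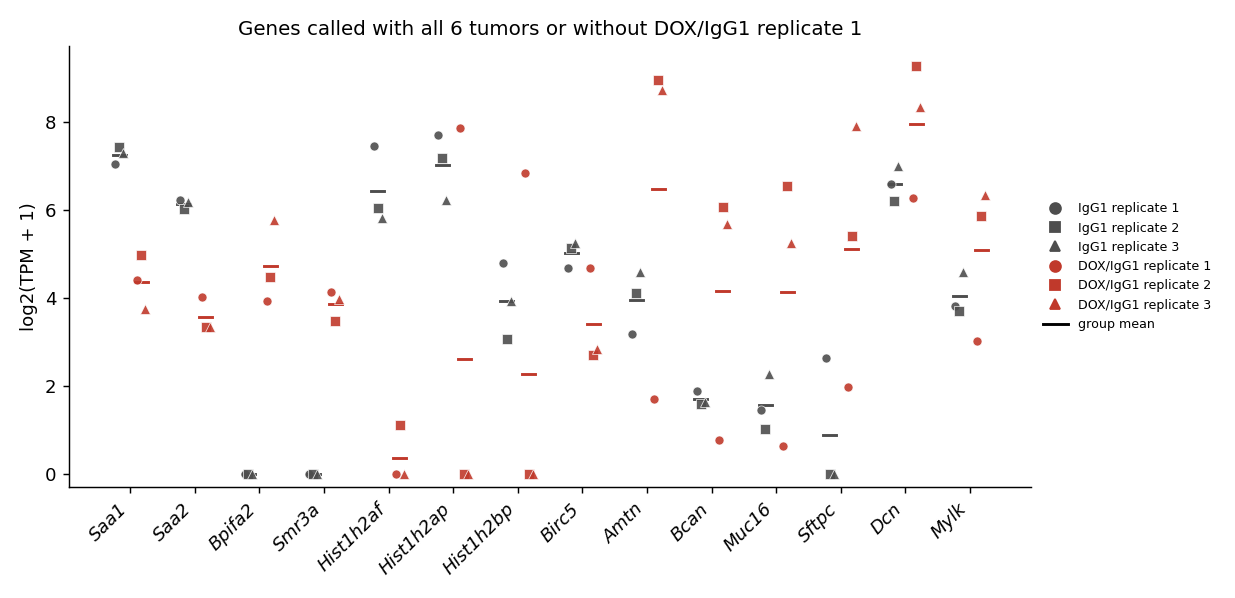
Level of 14 genes called with all 6 tumors or without DOX/IgG1 replicate 1, on a log2(TPM + 1) axis, with gray for IgG1, red for DOX/IgG1, a symbol for each replicate and a line at each group mean. For Amtn, DOX/IgG1 replicate 1 lies at 2.29 TPM, below the IgG1 tumors, and replicates 2 and 3 lie at 501 and 426 TPM, above them.

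Some of the cell type lists also set DOX/IgG1 replicate 1 apart from replicates 2 and 3. Of 13 fibroblast and pericyte genes 9 were higher, with a median of 0.23 that became 0.66 without DOX/IgG1 replicate 1 and -0.17 without DOX/IgG1 replicate 2. The list added up to 313, 287 and 489 TPM in the IgG1 tumors and 235, 1129 and 695 TPM in the DOX/IgG1 tumors. Dcn, the matrix proteoglycan decorin and the most abundant gene, was 95.3, 72.9 and 127 TPM and 76.8, 619 and 323 TPM, and was called without replicate 1 (2.21, SE 0.35, adjusted p = 0.0458). Lum, the related lumican, was 29.4, 36.4 and 60.3 TPM and 18.5, 122 and 119.5 TPM. Lrrc15, a marker of activated fibroblasts, was the member with the smallest p and was lower in every DOX/IgG1 tumor, at 8.55, 16.1 and 17.5 TPM and 2.49, 5.38 and 6.69 TPM. No defining marker of this list was at 0 in all tumors, limma called 0 with all tumors and 1 had an unadjusted p below 0.05, and the part of these cells in the other results was not tested.

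Of 9 basal and myoepithelial genes 8 were higher. Their median was 0.31 with all tumors, 1.37 without DOX/IgG1 replicate 1 and -0.03 without IgG1 replicate 2, and their sum was 523, 206 and 457 TPM and 238, 802 and 1129.8 TPM. Acta2, smooth muscle actin and the most abundant gene, was 212, 76.8 and 178 TPM and 63.7, 346 and 507 TPM. Mylk, the kinase that drives contraction, was 13.1, 12.2 and 23.3 TPM and 7.18, 57.9 and 81.0 TPM, and was called without replicate 1 (2.07, SE 0.36, adjusted p = 0.0654). Limma called 0 of the list with all 6 tumors, where 0 also had an unadjusted p below 0.05.

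Schwann cells wrap peripheral nerves. Of 12 markers 11 were tested, 9 were higher, and the median was 0.58, or 1.18 without DOX/IgG1 replicate 1, where 2 were called higher, against 0.692% of all genes. Added up, its members reached 222, 193 and 195 TPM in the IgG1 tumors and 201, 498 and 417 TPM in the DOX/IgG1 tumors, and Foxd3, a factor of the neural crest, was listed at 0 in all 6. S100b was 3.63, 6.89 and 4.99 TPM and 7.71, 25.7 and 25.5 TPM, without overlap. Gpm6b, the most abundant gene, was 21.3, 29.4 and 40.9 TPM and 26.9, 112 and 114 TPM. With all tumors limma called 0, and 3 had an unadjusted p below 0.05. The part of nerve tissue in these values was not tested.

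Of 14 T cell genes 9 were tested and 7 were higher, with a median of 0.42, or 1.01 without DOX/IgG1 replicate 1 and as low as 0.16 without another tumor. Cd3g, a chain of the T cell receptor complex, was 1.56, 0 and 0 TPM in the IgG1 tumors and 2.29, 8.01 and 11.5 TPM in the DOX/IgG1 tumors, and was called without replicate 1 (adjusted p = 0.0954), but it met the limit for testing through the DOX/IgG1 tumors, as only 1 IgG1 tumor had 1 TPM or more. Lck, the kinase next to that receptor, was 1.81, 5.51 and 1.43 TPM and 9.25, 8.6 and 5.51 TPM, and the lowest DOX/IgG1 value equaled the highest IgG1 value. In sum, the list stood at 31.6, 29.0 and 19.4 TPM and 17.9, 68.1 and 60.2 TPM, with Cd3e as the most abundant gene. Of 12 genes of NK and cytotoxic cells, all 5 that were tested were higher, and the median was 1.22, or 2.05 without replicate 1 and as low as 0.59 without another tumor. Over all alternatives this median was 0.39 at its lowest. Klrd1, a receptor subunit and the most abundant gene, was 0, 5.75 and 3.97 TPM and 0, 17.4 and 22.1 TPM. Gzma, a protease of killer granules, was 4.77, 0 and 2.5 TPM and 2.7, 19 and 13.3 TPM. This list summed to 17.3, 19.9 and 13.2 TPM and 11.4, 63.0 and 61.9 TPM. With all tumors limma called 0 in both lists, while 2 T cell genes and 1 cytotoxic gene had an unadjusted p below 0.05.

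Of 11 B and plasma cell genes, 2 were tested and both were higher, with a median of 1.19 (0.33 to 2.45 with 1 tumor left out). Over all alternatives this median was 0.05 at its lowest. Pou2af1, a coactivator of antibody genes, was 0, 0.79 and 3.94 TPM and 0, 11.4 and 22.1 TPM. With 1 TPM or more in only 1 IgG1 tumor, Pou2af1 met the limit for testing through the DOX/IgG1 tumors. The plasma cell gene Tnfrsf17 was listed at 0 in all 6 tumors. The members summed to 5.55, 3.84 and 7.63 TPM and 4.59, 20.2 and 37.3 TPM. Macrophage genes were close to all genes, with 10 of 15 higher and a median of 0.10 that became -0.01 after scaling. Lyz2, the lysozyme of myeloid cells, was 278, 235 and 303 TPM and 334, 319.6 and 319 TPM, and the list summed to 3154, 2144 and 2282 TPM and 3171, 2542 and 2042 TPM, with Apoe as the most abundant gene. Of 10 neutrophil genes 2 were tested, both lower, with a median of -0.76. This median ranged from -1.20 to -0.47 with 1 tumor left out and from -1.76 to -0.395 over all alternatives. The list summed to at most 10.1 TPM in any tumor, and Ly6g, Elane, Retnlg and Camp were listed at 0 in all 6. Of 9 dendritic cell genes 7 were tested and 5 were higher, with a median of 0.16 (-0.03 to 0.53 with 1 tumor left out). The dendritic cell list summed to 44.2, 32.9 and 47.6 TPM and 27.4, 54.8 and 76.2 TPM. In each of these 4 lists limma called 0, and 0 members had an unadjusted p below 0.05.

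Endothelial genes did not share a direction, with 5 of 12 higher and a median of -0.07 that became 0.16 without DOX/IgG1 replicate 1. Cdh5, the cadherin of vessel walls, was 26.9, 21.8 and 23.1 TPM and 16.0, 16.0 and 5.7 TPM, lower in every DOX/IgG1 tumor (log2 fold change -0.996, SE 0.41, limma adjusted p = 0.621). With 1 tumor left out the log2 fold change of Cdh5 ranged from -1.22 to -0.55. The summed list reached 166, 157 and 211 TPM and 180.1, 251 and 143 TPM, with Pecam1 as the most abundant gene. Adipocyte genes were higher in 13 of 16 tested, with a median of 0.54 and sums of 389, 807 and 895 TPM and 437, 2240.4 and 451 TPM, so that DOX/IgG1 replicate 2 stood above the rest and replicates 1 and 3 lay within the range of the IgG1 tumors. Without DOX/IgG1 replicate 2 the median was -0.31. Car3 was the most abundant gene. G0s2, an inhibitor of fat breakdown, went against the list at 212, 146 and 173 TPM and 101, 74.6 and 43.9 TPM, and was called without replicate 1 (-1.59, SE 0.30, adjusted p = 0.0820). In both lists limma called 0 with all tumors, and 1 and 1 had an unadjusted p below 0.05.

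Skeletal muscle genes were lower in 13 of 19 tested, with a median of -0.24, and their sums of 252, 81.2 and 904 TPM and 108, 270.3 and 322 TPM varied more within the groups than between them. Without IgG1 replicate 3 the median was 0.66. Acta1 was the most abundant of them at 42.4, 9.91 and 107 TPM and 12.1, 51.6 and 87.9 TPM. The red blood cell genes were higher in 4 of 5, with a median of 0.84 that became -0.82 without DOX/IgG1 replicate 1. They summed to 260, 62.9 and 87.8 TPM and 2346, 189 and 41.9 TPM, so that replicate 1 alone was high. Hbb-bs was the most abundant gene, and the globin genes have near-identical copies whose values are uncertain. Of 10 skin and hair genes 1 was tested, with a log2 fold change of -0.02, and Krt2, Krt25 and Krt35 were listed at 0 in all 6 tumors. Their sums were 1.19, 2.42 and 2.34 TPM and 0.49, 0.18 and 35.1 TPM, with Flg as the most abundant. Limma called 0 in these 3 lists, and 0 members had an unadjusted p below 0.05. The part of muscle, blood and skin in the other results was not tested.

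Sterol and fatty acid synthesis genes were lower in 16 of 24, with a median of -0.16 (-0.26 to -0.03 with 1 tumor left out). All 3 DOX/IgG1 tumors lay below the IgG1 tumors in 5 (20.8%, against 4.64% of all genes) and in 7 after scaling, against 7.38%. Fdps, an enzyme on the way to cholesterol, was 46.7, 49.9 and 45.3 TPM in the IgG1 tumors and 7.46, 13.1 and 35.6 TPM in the DOX/IgG1 tumors (-1.56, SE 0.48, adjusted p = 0.507). Cyp51, a later enzyme of that path, was 83.3, 62.3 and 76.4 TPM and 52.3, 33.6 and 42.5 TPM, and Srebf1, a transcription factor of lipid synthesis, was 516, 509 and 471 TPM and 312, 294 and 355 TPM. All 3 genes were lower in every DOX/IgG1 tumor. Glycolysis and hypoxia genes were higher in 19 of 23, against 60.6% of all genes, with a median of 0.21, against 0.12 for all genes. The list median ranged from 0.02, without DOX/IgG1 replicate 1, where all genes had 0.15, to 0.32 with 1 tumor left out. After scaling, 15 were higher and the median was 0.09, against 0.01 for all genes. All 3 DOX/IgG1 tumors lay above the IgG1 tumors in 1 member (4.35%, against 9.31% of all genes). Aldoc, an aldolase, was 259, 185 and 165 TPM and 459, 243 and 330.3 TPM, and Pfkl, a phosphofructokinase, was 117, 109 and 91.3 TPM and 222, 171 and 113 TPM, with the highest value of each in replicate 1. Limma called 0 in both lists, and 4 lower sterol genes and 1 higher glycolysis gene had an unadjusted p below 0.05.

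In the list for cAMP, calcium and PKC signaling, 47 of 49 genes were tested and 35 were higher, with a median of 0.30. The groups did not overlap in 9 higher members (19.1%, against 9.31% of all genes) and 1 lower member (2.13%, against 4.64%). After scaling they did not overlap in 7 higher members, against 6.91% of all genes, and 2 lower members, against 7.38%. Adcy3, an adenylyl cyclase, was 4.74, 7.59 and 5.69 TPM and 21.3, 16.8 and 9.71 TPM. Plcb1, a phospholipase that G proteins activate, was 26.9, 36.1 and 25.1 TPM and 43.7, 52.7 and 53.1 TPM. Pde1c, a phosphodiesterase that calcium activates, was 0.29, 0.29 and 0.26 TPM and 1.5, 3.42 and 4.87 TPM, and Gnai1, an inhibitory G protein subunit, was 0.42, 1.59 and 1.64 TPM and 2.84, 8.15 and 6.35 TPM. The DOX/IgG1 tumors were above the IgG1 tumors for all 4, of which the latter 2 were low in level, and Pde1c could be tested only through the DOX/IgG1 tumors. Limma called 0, and 6 had an unadjusted p below 0.05. Immediate early genes, which respond within minutes to stimuli and to handling of tissue, were higher in 13 of 18 tested, with a median of 0.31 (0.18 to 0.52 with 1 tumor left out). Fos was 73.9, 159.6 and 145 TPM and 258, 342 and 148 TPM, and Egr1 was 16.8, 43.0 and 38.4 TPM and 58.8, 87.7 and 33.1 TPM, with overlap in both. Limma called 0 there, and 1 had an unadjusted p below 0.05.

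Cytosolic ribosomal protein genes served as a broad reference for the translation machinery. Of 83 members 80 were tested, 46 were lower and 34 higher, with a median of -0.07, against 0.12 for all genes, and 0.09 without IgG1 replicate 1. Limma called 0, and 6 lower and 2 higher members had an unadjusted p below 0.05. Rps29 was 103, 79.7 and 59.8 TPM in the IgG1 tumors and 19.9, 45.9 and 39.8 TPM in the DOX/IgG1 tumors, without overlap. All members together gave 44352, 38419 and 29514 TPM and 41801, 35095 and 33550 TPM, with Rpl13a as the most abundant gene.

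**Figure D5:**
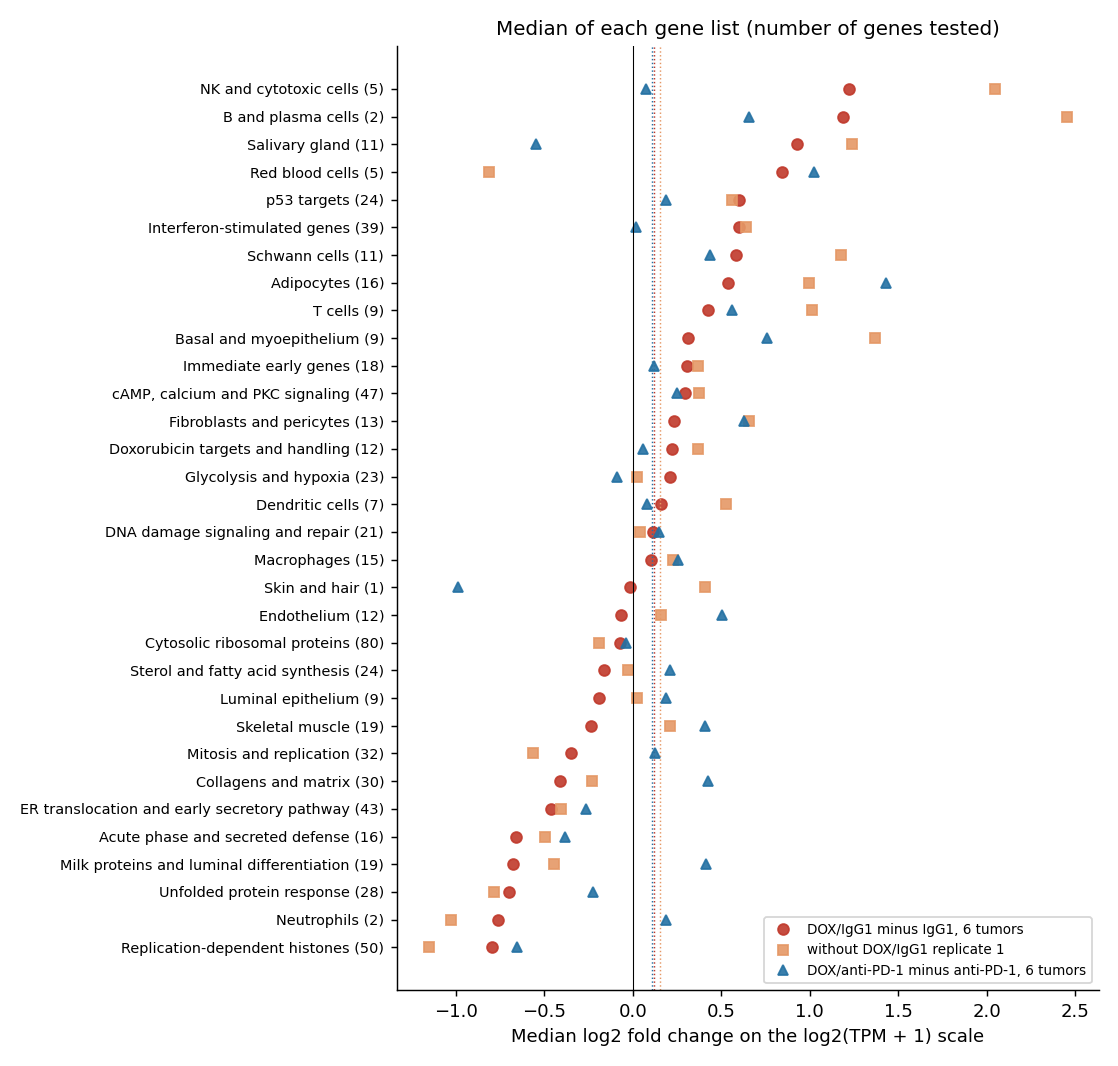
Median log2 fold change of each gene list for DOX/IgG1 minus IgG1 with all 6 tumors (circles) and without DOX/IgG1 replicate 1 (squares), and for DOX/anti-PD-1 minus anti-PD-1 (triangles), with dotted lines at the medians of all genes tested and the number of genes tested in brackets. Unfolded protein response genes lie at -0.70, -0.78 and -0.22, and interferon-stimulated genes at 0.60, 0.64 and 0.02.

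Doxorubicin was also given with anti-PD-1, in an arm that shares no tumor with the groups above. Over the same genes, the median log2 fold change with doxorubicin was there 0.11, and limma called 0. The median there was -0.22 for the unfolded protein response list, -0.26 for the ER list and 0.19 for p53 targets. Without doxorubicin Xbp1 was 968, 1004 and 815 TPM in this arm, and with it 593, 718 and 544 TPM (-0.59 on the log2 scale). Cdkn1a was 14.02, 10.7 and 29.3 TPM and 23.9, 13.7 and 67.6 TPM (0.75), and Ccng1 was 83.8, 53.7 and 83.2 TPM and 86.0, 41.5 and 97.1 TPM (-0.04). Trp53inp1 was lower in mean, at 146.83, 117.94 and 175.04 TPM and 48.46, 65.85 and 151.47 TPM (-0.87), while Zmat3 (0.75) and Mdm2 (0.18) were higher. Amtn was 3.31, 10.8 and 19.4 TPM and 49.2, 49.5 and 41.2 TPM (2.23), higher in every DOX/anti-PD-1 tumor.

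Whether the difference with doxorubicin itself differed between the antibodies was tested as an interaction in limma with all 12 tumors. It was called for 1 of 14735 genes (0.00679%), and 694 genes had an unadjusted p below 0.05. That gene was Bpifa2 (adjusted p = 0.0909), which was listed at 0 in all 9 tumors outside the DOX/IgG1 group, so that it could be tested only through the group in which it was high, and nothing more is read from this call. The call held without DOX/IgG1 replicate 1 (adjusted p = 0.0332) and was lost when any other tumor was left out, with adjusted p between 0.156 and 0.397. For Xbp1, Cdkn1a and Ccng1 the interaction had adjusted p of 0.993, 0.993 and 0.993 and was not called, at -0.86 (SE 0.32, unadjusted p = 0.0172), 0.88 (SE 0.71, unadjusted p = 0.236) and 1.37 (SE 0.46, unadjusted p = 0.010) on the log2 scale. For Trp53inp1 it was 1.92 (SE 0.52, limma unadjusted p = 0.00276, adjusted p = 0.993) and was not called either.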

How the data were processed

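Libraries were made with a stranded SMARTer kit. The authors used skewer for trimming, STAR for alignment to mm10 and RSEM for gene levels, in versions not given in the sources used here. The authors deposited log2(TPM + 1) for each tumor, with decimal commas. The depth is unknown, as no counts are in the files, so no counting interval is given. The log2 step was reversed, and 21860 genes were matched by Ensembl identifier to GENCODE vM21, which gave GRCm38 coordinates. Groups came from the sample labels.

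Genes with at least 1 TPM in 3 or more of the 6 tumors were tested with limma 3.58.1 (R 4.3.3) on log2(TPM + 1). The fit used a mean-variance trend, and its two-sided p-values were adjusted by Benjamini-Hochberg over all genes tested. The limits were an adjusted p of 0.1 and an absolute log2 fold change of 1. The interaction used all 12 tumors. The fits of the comparison and the interaction, with the limits for calling, were tested on simulated data. The overlap of groups and the motif search were tested on made-up values, and the other steps were not tested in this way. Values are given per tumor, and SE is that of the limma log2 fold change.

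Named genes are those called, the 10 with the smallest p in each direction among genes above the fold change limit whose groups do not overlap, 5 in each direction with the largest change among those called without DOX/IgG1 replicate 1, and the 5 with the highest mean level. From each list up to 4 genes with the smallest p and the most abundant one were added, with Top2a, Top2b, Cdkn1a and Mdm2. Not every gene that the rule gives is named. The genes given with a fold change were chosen from those of the rule after the alternatives had been run, and genes whose sign changed were mostly left out of them, so the dependence on processing is counted over all genes of the rule. Genes outside it are named as such, and Lgr6, Foxa1, Pgr, Ltf and Col23a1 were chosen after their values were seen. The members and the 32 lists were chosen with earlier results of these data known. Lists were described by counts and medians and were not tested. Motifs were searched in RefSeq promoters on GRCm38.

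Alternatives were a pseudocount of 0.1, no filter, a minimum of 5 TPM, a fit of all 12 tumors, the replicate number as a block, scaling by the median of ratios, rescaling to a fixed sum, no trend, a robust trend and leaving out each tumor in turn. Scaling and leaving out a tumor for genes whose groups do not overlap, the alternatives for the median of all genes, and leaving out tumors of the anti-PD-1 arm for the interaction were chosen after seeing the data. Drawings were made with matplotlib.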

Additional observations from a re-analysis of the deposited data

Results flagged for a closer look

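Bpifa2 was 14.4, 21.3 and 53.7 TPM in the DOX/IgG1 tumors and listed at 0 in the 9 tumors of the other groups, so that it could be tested only through the group in which it was high, and the interaction was called by limma (adjusted p = 0.0909). That call held in 3 of 18 alternatives, with adjusted p from 0.0240 to 0.991. Lgr6, a receptor of the R-spondin family, was chosen after its values were seen. With the control antibody it was 53.5, 34.7 and 56.2 TPM without doxorubicin and 11.9, 20.8 and 27.4 TPM with it, so that every DOX/IgG1 tumor was lower. With anti-PD-1 it was 24.6, 28.2 and 26.1 TPM without doxorubicin and 43.1, 73.1 and 68.7 TPM with it, so that every DOX/anti-PD-1 tumor was higher. The difference of the log2 fold changes was -2.43 (SE 0.45), which limma did not call (interaction adjusted p = 0.548). The cause of these values was not tested.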

How the results depend on the processing

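Every tested gene that the naming rule gives or the text names outside it was compared, 178 in all, whether or not the text gives its fold change. Over up to 15 alternatives per gene, 154 kept the sign of their log2 fold change and 24 did not. With 1 tumor left out these 24 ranged as follows: Rpl13a (-0.18 to 0.16), Cp (-0.17 to 0.10), Perp (-0.19 to 0.35), Trp53bp1 (-0.0944 to 0.27), Irf7 (-0.22 to 0.70), Sparc (-0.48 to 0.71), Scd1 (-0.15 to 0.67), Krt17 (-0.20 to 0.63), Cd3e (-0.31 to 1.58), Jchain (-0.11 to 1.87), Apoe (-0.47 to 0.12), Cd209a (-0.0465 to 1.90), Itgax (-0.0255 to 0.31), Pecam1 (-0.31 to 0.31), Car3 (-0.22 to 1.57), Ckm (-1.80 to 0.0246), Ttn (-1.47 to 0.0906), Acta1 (-0.80 to 0.88), Krt10 (-0.86 to 0.41), Hbb-bs (-0.12 to 2.89), Hba-a1 (-0.82 to 2.49), Hba-a2 (-1.31 to 3.35), Top2b (-0.13 to 0.78) and Ltf (-0.58 to 1.05). Scaling by the median of ratios also turned Rpl13a (-0.085), Perp (-0.0571), Acta1 (-0.0378) and Trp53bp1 (-0.0094), rescaling to a fixed sum Rpl13a (-0.0192), and a pseudocount of 0.1 Hba-a2 (-0.15). None of the 24 was called with all 6 tumors, and the cause was not tested. Of the 178 genes, 34 not called with all tumors were called under at least 1 alternative. The sign of the list median held under every alternative in 20 of 32 lists. It did not in the lists for DNA damage (-0.11 to 0.23), ribosomal proteins (-0.25 to 0.09), luminal (-0.32 to 0.03) and basal epithelium (-0.03 to 1.37), macrophages (-0.01 to 0.23), dendritic cells (-0.03 to 0.53), fibroblasts (-0.17 to 0.66), endothelium (-0.27 to 0.19), adipocytes (-0.31 to 1.00), skeletal muscle (-1.01 to 0.66), skin (-0.86 to 0.41) and red blood cells (-0.82 to 2.49). The median of all genes ranged from 0.01 to 0.18.

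The number of genes called was 5, with 2 higher and 3 lower. With 1 tumor left out it ranged from 0 to 122, from 0 to 96 for higher and from 0 to 26 for lower genes. Without a mean-variance trend 13 genes were called, 7 higher and 6 lower, and all 5 remained. A pseudocount of 0.1 or a minimum of 5 TPM left 1 gene called higher and 4 in all, each of them among the 5, and Smr3a was the gene lost. The fit of all 12 tumors called 7 genes, 4 of them among the 5, and lost Hist1h2af. After both scalings, without a filter and with a robust trend the same 5 genes were called. The cause of these differences was not tested.

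Deviations from the group mean were compared between the groups to see whether tumors with the same replicate number pair. Each IgG1 tumor correlated best with the DOX/IgG1 tumor of its own number, at r = 0.141, 0.0114 and 0.120 across genes, and not all exceeded 0.1. Seen from the other group this did not hold, as DOX/IgG1 replicate 2 correlated best with IgG1 replicate 3 (r = 0.107). With the number as a block, 2 genes were called, 0 higher and 2 lower, and 1 of them, Hist1h2af, was among the 5, and the other was Dmbt1. At an unadjusted p below 0.05 limma then gave 1202 genes.

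The interaction was called in 1 gene. The count was 0 with a pseudocount of 0.1, with a block for the replicate number and after either scaling, 3 without a trend, and 0 to 1 with 1 tumor left out. Genes whose groups do not overlap numbered 1292 higher and 644 lower, 959 and 1024 after scaling by the median of ratios, and 3078 and 1449 without DOX/IgG1 replicate 1, where fewer tumors need to part.

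The limits are 3 tumors in each group, the tumor that stands apart, an unknown depth, and start size, first dose and schedule that differ together with doxorubicin. Levels near 0 TPM, copies that are nearly identical and mixed cell types limit what a value for 1 gene can show.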
